A study of Arabidopsis thaliana with 4 samples.

Results

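The hubs described here are node genes with far fewer listed chromatin interactions in the *myc2* mutant of *Arabidopsis* than in the wild type. H3K4me3 ChIA-PET was carried out on shoots, the aerial part, of 2-week-old seedlings of *myc2* and of wild-type Col-0, grown at 22 °C with 16 h of light and 8 h of darkness. Each genotype had 2 samples, which the authors combined into 1 loop list per genotype, so that every value below is a single value of a pooled list and no test between the genotypes was possible. The labels name no allele for *myc2*, and shoots hold many cell types, so that fewer cells with a loop and fewer PETs per cell cannot be told apart.

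A gene joined by a loop to another gene is called its connecting gene, and a node gene with at least 5 connecting genes is a hub. A Col-0 hub was taken as entirely disassembled when *myc2* had at least 3 fewer connecting genes and the difference was at least 0.7 of the number in Col-0. By this rule 74 genes were found among 7143 Col-0 hubs (1.04%) and 14978 node genes. The 74 hubs were chosen by their numbers of connecting genes in both lists, so that their falls are a description and carry no support of their own. The word entirely holds for the rule rather than for the hubs, because 6 of the 74 had no connecting gene in *myc2*, 44 had 1 and 24 had 2. A connecting gene of Col-0 is called lost when the *myc2* list holds no loop to it, and kept when both lists do. A partner in *myc2* is called gained or new when the Col-0 list holds no loop to it. In Col-0 the same genes had 5 connecting genes in 43 cases, 6 in 5, 7 in 17, 8 in 7, 9 in 1 and 10 in 1.

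H3K4me3 is deposited around the start of transcribed genes, and ChIA-PET joins the ends of DNA fragments that carry the mark and lie close together in crosslinked chromatin. A junction that is sequenced is a paired-end tag (PET), and a loop is a pair of H3K4me3 anchors joined by more PETs than their random ligation would give. MYC2 is a basic helix-loop-helix transcription factor of the jasmonate pathway, which also acts in abscisic acid (ABA) signalling and in the control of indole glucosinolate genes, and its preferred binding sequence is the G-box, CACGTG.

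The *myc2* list held 32312 loops with 297390 PETs, and the Col-0 list held 36723 loops with 745505 PETs. The lowest PET count of a loop was 5 in *myc2* and 10 in Col-0, and 256 loops of *myc2* and none of Col-0 joined different chromosomes. Of the 2 H3K4me3 anchors that overlap MYC2 itself (AT1G32640), that at chr1:11798986-11801084 held 1423 tags in *myc2* and 3562 in Col-0, and that at chr1:11796577-11798141 held 1731 in *myc2* and 2479 in Col-0. The antisense gene AT1G32630 overlaps MYC2 and takes the first of these anchors under the rule, and the other lies mostly outside MYC2, so that MYC2 was no node gene. Of 8 genes known from shoots, 6 were node genes, and of 8 genes known from roots, 2 were (SCARECROW and SHORT-ROOT). Over all genes, 14978 of 27444 protein-coding genes were node genes. Whether such short lists differ from that share was not tested.

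Because the G-box is what MYC2 binds, it was searched on both strands in the 300 bases that reach from 250 before to 50 after the start of each gene. It was present in 4 of the 74 disassembled hubs (5.41%, 95% Wilson interval 2.12 to 13.1) and in 9.68% of the other Col-0 hubs, against 7.68% of all protein-coding genes. The promoters of the 4 genes are shown because they are the ones among the 74 that hold the letters MYC2 prefers. They were read from TAIR10.1 and are written 5′ to 3′ on the strand of the gene, with the G-box in capitals.
NF-YC11 (chr3:3957513-3957812, plus strand): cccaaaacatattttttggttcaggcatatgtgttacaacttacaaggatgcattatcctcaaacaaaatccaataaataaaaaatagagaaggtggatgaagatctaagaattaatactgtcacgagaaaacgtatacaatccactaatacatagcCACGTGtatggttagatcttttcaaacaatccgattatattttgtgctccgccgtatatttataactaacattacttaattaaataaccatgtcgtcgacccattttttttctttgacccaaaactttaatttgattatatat
SARA1A (chr1:2964773-2965072, plus strand): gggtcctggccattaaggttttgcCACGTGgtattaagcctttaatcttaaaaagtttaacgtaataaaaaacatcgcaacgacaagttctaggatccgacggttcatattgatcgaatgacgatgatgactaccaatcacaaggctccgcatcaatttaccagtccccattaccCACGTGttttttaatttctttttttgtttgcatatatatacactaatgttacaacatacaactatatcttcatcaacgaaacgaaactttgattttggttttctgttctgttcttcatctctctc
MBD8 (chr1:7883775-7884074, minus strand): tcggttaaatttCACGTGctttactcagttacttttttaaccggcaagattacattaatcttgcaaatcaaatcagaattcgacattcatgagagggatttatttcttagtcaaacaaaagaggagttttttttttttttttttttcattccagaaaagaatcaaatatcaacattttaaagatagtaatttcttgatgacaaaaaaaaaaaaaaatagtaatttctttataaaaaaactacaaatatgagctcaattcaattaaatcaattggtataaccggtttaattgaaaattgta
PRF3 (chr5:22910661-22910960, minus strand): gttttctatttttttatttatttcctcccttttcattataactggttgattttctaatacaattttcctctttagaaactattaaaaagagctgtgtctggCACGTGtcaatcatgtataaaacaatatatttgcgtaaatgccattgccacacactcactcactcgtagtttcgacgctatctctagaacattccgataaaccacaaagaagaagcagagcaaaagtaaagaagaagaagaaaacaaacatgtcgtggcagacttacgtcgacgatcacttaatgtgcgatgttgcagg

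The G-box starts 93 bases before the start in NF-YC11, which encodes a histone-fold subunit of the nuclear factor Y family. It starts 149 bases before it in PRF3 (a profilin, which binds actin), 238 in MBD8 (a methyl-CpG-binding domain protein), and 226 and 75 in SARA1A (a small GTPase of the Sar1 family, which drives the budding of secretory vesicles). The last 3 of these promoters were chosen for display after their values were seen.

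In the whole anchors of the node genes, which are mostly longer than the promoters, the G-box was present in 11 of the 74 (14.9%), against 15.2% of the other Col-0 hubs. Adding CACATG, a variant that MYC2 also binds, gave 16 of 74 promoters (21.6%), against 20.8% in the other hubs and 19.3% of all genes, and 40.5% against 38.0% of the anchors. The shares of the disassembled hubs thus lay under or close to those of the other hubs in these windows. A match of letters is no evidence of binding, and MYC2 occupancy was not used here.

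The anchor with most G-boxes was that of PYL6, which encodes an ABA receptor of the PYR/PYL/RCAR family. It holds 4 of them, and all 4 lie in coding sequence, 508, 529, 658 and 878 bases after the start. The stretch with 3 of them was chosen after its values were seen and is shown on the strand of the gene.
PYL6 (chr2:16845405-16845704, minus strand): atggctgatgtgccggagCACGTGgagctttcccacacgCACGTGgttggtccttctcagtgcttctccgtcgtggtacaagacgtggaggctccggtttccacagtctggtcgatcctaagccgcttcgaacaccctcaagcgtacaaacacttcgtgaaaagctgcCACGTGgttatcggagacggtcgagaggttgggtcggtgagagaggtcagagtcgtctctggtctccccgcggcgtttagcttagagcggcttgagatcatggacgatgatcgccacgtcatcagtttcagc

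The deepest fall was that of Cand2 (AT3G05010), a predicted G protein-coupled receptor, with 2 connecting genes in *myc2*, against 10 in Col-0. OST1 (AT4G33950), the SnRK2 kinase that ABA activates to close stomata, followed with 2 in *myc2* and 9 in Col-0. Falls of 6 were found in 9 genes, of 5 in 26 genes and of 4 in 37 genes. The median change was -4.5 over the 74 hubs and -1 over the other 7069 Col-0 hubs. Fewer connecting genes in *myc2* were common, and 62.7% of Col-0 hubs had them. With Col-0 loops under 15 PETs left out, 45 of the 74 genes had fewer connecting genes in *myc2*, 20 had as many and 9 had more. That setting cuts the Col-0 list alone, so that it can only move genes toward more in *myc2*. The other hubs were not counted in this way.

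**Figure D1:**
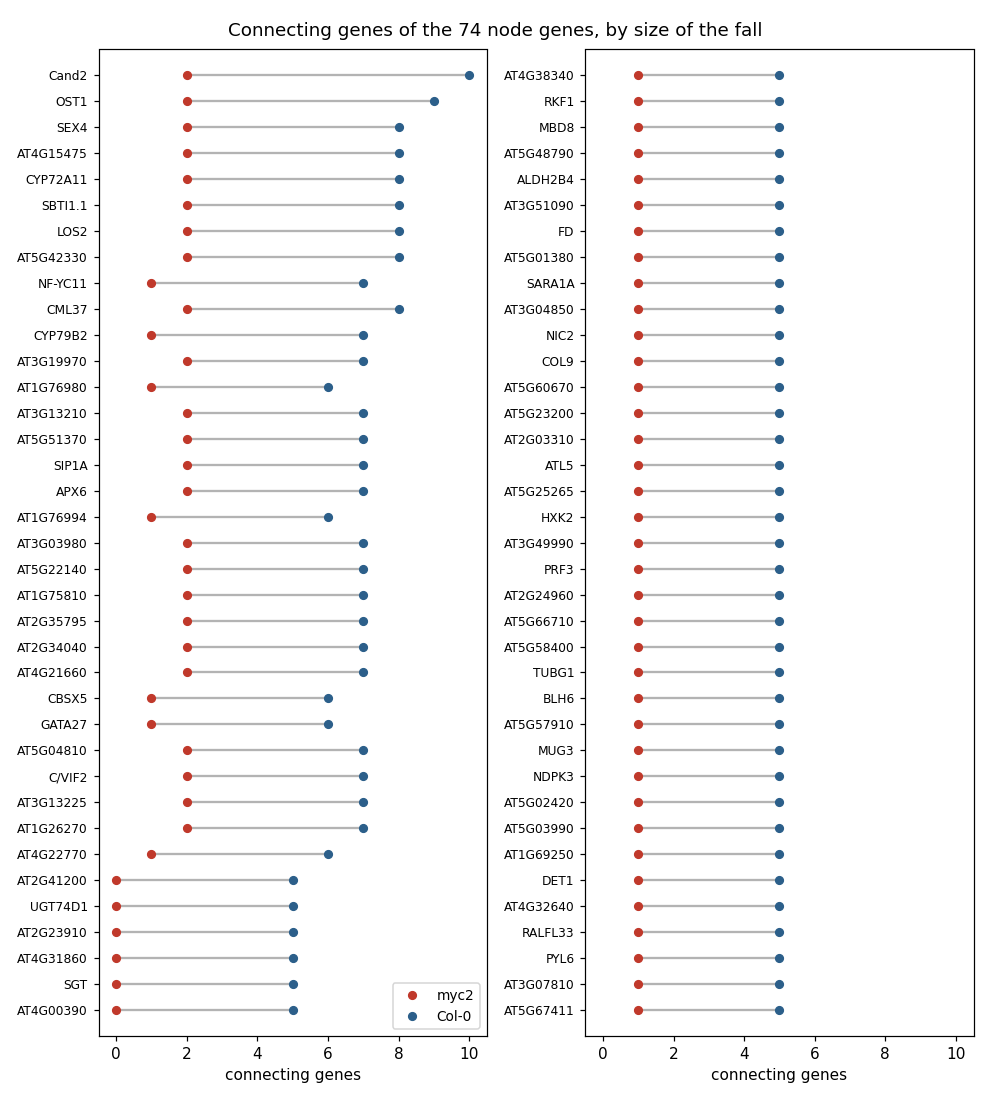
Connecting genes (horizontal axis, number) of each of the 74 node genes in *myc2* (red) and in Col-0 (blue), ordered by the size of the fall and then by PETs in Col-0. Each point is 1 value of a pooled loop list; Cand2 heads the left panel with 2 in *myc2* and 10 in Col-0, and the genes of the right panel all had 1 in *myc2* and 5 in Col-0.

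At Cand2 the H3K4me3 anchor lay at chr3:1389179-1390232, over the promoter and the first part of the gene. Of its 10 connecting genes in Col-0, 1 was kept, AT3G04970 (encoding a DHHC-type zinc finger protein), with 7 PETs in *myc2* and 17 PETs in Col-0. A gene with no listed loop to Cand2 in Col-0, AT3G04960, was joined to it in *myc2* by 7 PETs. A loop of 7 PETs would not have been listed in Col-0, where the lowest count was 10. The 9 lost pairs had 10 to 18 PETs in Col-0, and AT3G05060, a NOP56-like gene of pre-rRNA processing, had the most. Also lost were HST (18.3 kb away), which encodes an exportin-like factor of miRNA biogenesis, with 13 PETs in Col-0, and WNK1, a protein kinase gene, with 12. ACP1 and NHX2, the next genes along the chromosome, had it as their sole connecting gene in Col-0 and had none in *myc2*. The same anchor is also covered by AT3G05000, whose start lies beside that of Cand2, so that the loops cannot be told apart between these neighbours.

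At OST1 (anchor chr4:16271893-16272921, within the 5′ part of the gene) both kept partners lay on the same side. AT4G33945 was joined by 13 PETs in *myc2* and 21 PETs in Col-0, and AT4G33940 by 10 in *myc2* and 20 in Col-0. The strongest partner of OST1 in Col-0, AT4G33970 with 22 PETs at 7.67 kb, was not listed in *myc2*. AT4G33980 was lost at 17 PETs, AT4G33920, encoding a protein phosphatase 2C, at 12 PETs, and the other 4 lost partners had 11 to 13. In all, OST1 had 23 PETs with its connecting genes in *myc2* and 139 in Col-0.

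PYL6, upstream of OST1 in the ABA pathway, had 1 connecting gene in *myc2* and 5 in Col-0. The 5 genes in Col-0, all within 20 kb, were joined by 10 to 13 PETs, and none of them was listed in *myc2*. The gene joined to PYL6 in *myc2* was HK1, a histidine kinase gene, 9097 kb away on the same chromosome and with 5 PETs, the lowest count of that list. With Col-0 loops under 15 PETs left out, which removes all 5 of its genes in Col-0, PYL6 had 1 more connecting gene in *myc2* than in Col-0. The list of 25 core genes of ABA signalling held 20 node genes, of which 15 had fewer connecting genes in *myc2*, 3 had as many and 2 had more. Over all 14978 node genes 7611 had fewer, 3753 as many and 3614 more, and the median change was -1 in the list and over all node genes. Among the other ABA genes, SNRK2.2 had 3 connecting genes in *myc2* and 5 in Col-0, SNRK2.3 had 4 and 5, the phosphatase gene HAB2 had 3 and 6, and the receptor gene PYL7 had 7 in both.

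CYP79B2, which encodes the cytochrome P450 that turns tryptophan into the oxime from which indole glucosinolates are made, had 1 connecting gene in *myc2* and 7 in Col-0. The kept partner, AT4G39960, was 1 of the 2 weakest in Col-0, with 6 PETs in *myc2* and 10 in Col-0. The strongest lost partner was POR, a tubulin-folding cofactor gene, with 19 PETs in Col-0. DHS1, encoding the first enzyme of the shikimate pathway, was lost at 13 PETs, and AKN2, encoding an APS kinase that supplies sulfate donors, at 12. The anchor of this hub does not lie at the start of CYP79B2 but 1584 to 2297 bases after it, where it also overlaps the promoter of AT4G39952, so that the loops of these neighbours cannot be told apart. When anchors were given to the genes whose promoters they overlap, the change of CYP79B2 was 0, as were those of SBTI1.1 and AT2G41200.

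Of 14 genes of indole glucosinolate synthesis, 11 were node genes, of which 7 had fewer connecting genes in *myc2*, 3 as many and 1 more, with a median change of -1, beside 7611 with fewer among the 14978 node genes. CYP79B3, the near copy of CYP79B2, had 5 connecting genes in both genotypes. CYP83B1, the next enzyme of the pathway, had 5 in *myc2* and 8 in Col-0, and the regulator MYB34 had 4 in *myc2* and 7 in Col-0. Of 19 genes of jasmonate signalling, 16 were node genes and none was among the 74. There 8 genes had fewer connecting genes in *myc2*, 5 as many and 3 more, with a median change of -0.5, a share with fewer close to that of all node genes (7611 of 14978).

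**Figure D2:**
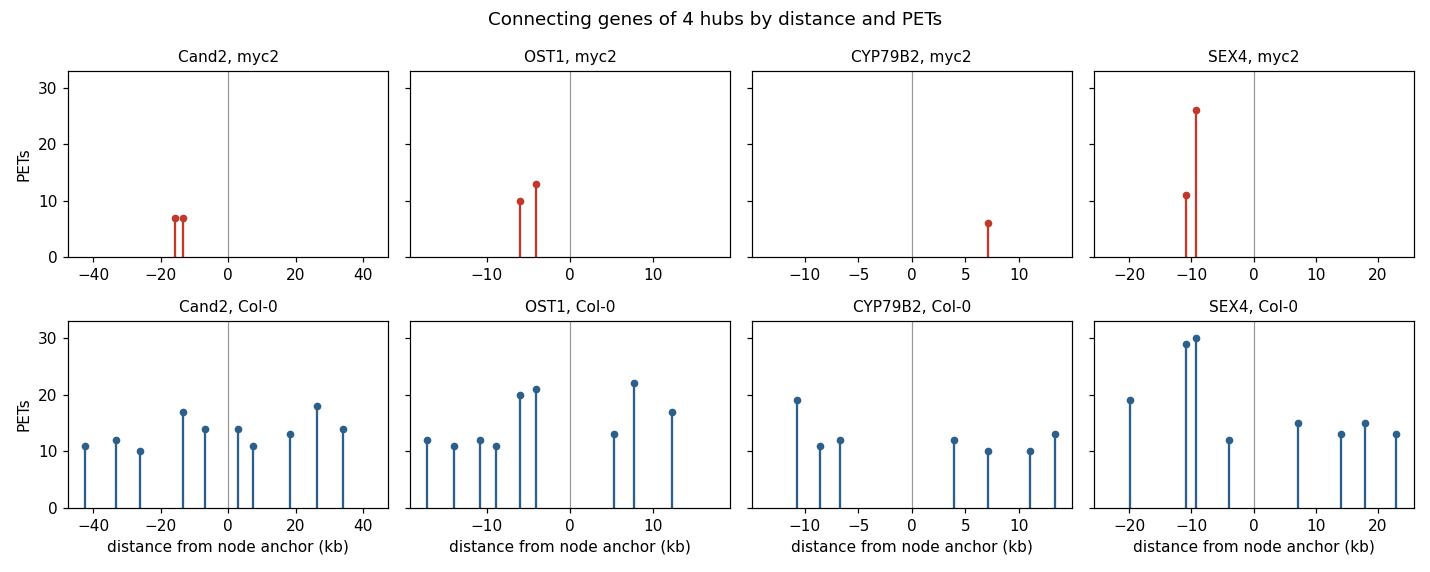
PETs (vertical axis) of each gene joined to Cand2, OST1, CYP79B2 and SEX4, against its distance in kb from the node anchor (0, grey line), in *myc2* above and in Col-0 below. Each stem is 1 connecting gene; Cand2, OST1 and SEX4 have 2 stems each in *myc2* and CYP79B2 has 1, against 10, 9, 8 and 7 in Col-0.

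SEX4, encoding the phosphoglucan phosphatase needed for starch breakdown in leaves, had 2 connecting genes in *myc2* and 8 in Col-0, and the most PETs of the 74 in both lists (37 in *myc2*, 146 in Col-0). Its kept pair with AT3G52155 had 26 PETs in *myc2* and 30 in Col-0, and that with PSRP2, a plastid ribosomal protein gene, 11 in *myc2* and 29 in Col-0. The other 6 partners had 12 to 19 PETs in Col-0 and were not listed in *myc2*. LOS2, the enolase gene of glycolysis, had 2 connecting genes in *myc2* and 8 in Col-0. Among its 6 lost partners were DML1 (15 PETs in Col-0), which encodes a DNA demethylase, and AT2G36580 (13), a pyruvate kinase gene.

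The other genes with 2 connecting genes in *myc2* and 8 in Col-0 were SBTI1.1, CYP72A11, AT4G15475, AT5G42330 and CML37. SBTI1.1, a subtilisin-like protease gene, kept AT1G01910 at 18 PETs in *myc2* and 30 in Col-0, and its anchor lies 1669 to 2365 bases after the start of the gene. CYP72A11 lies in a cluster of cytochrome P450 genes, to which its strongest pairs led. It kept CYP72A8 (12 PETs in *myc2*, 45 in Col-0) and CYP72A7 (11 in *myc2*, 12 in Col-0), and CYP72A13 and CYP72A15 were lost at 21 and 10 PETs in Col-0. These genes are similar in sequence, and the placing of reads between such copies was not examined. With Col-0 loops under 15 PETs left out, CYP72A11, AT5G42330 and CML37 each had 1 more connecting gene in *myc2* than in Col-0. AT4G15475, an F-box gene, kept the glucosyltransferase gene UGT84A1 (14 PETs in *myc2*, 28 in Col-0), while its neighbour UGT84A3 was lost at 21 PETs and HPL1, the hydroperoxide lyase gene of the oxylipin pathway, at 19.

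NF-YC11 had 1 connecting gene in *myc2* and 7 in Col-0, the deepest fall among the 4 hubs whose promoter holds a G-box. Its anchor reaches from position -97 to position 801 relative to the start and so holds the G-box printed above. It kept CYSB, a cystatin gene, with 6 PETs in *myc2* and 12 in Col-0, and the 6 lost partners had 10 to 18 PETs in Col-0. ELC, which encodes an ESCRT component for vesicle sorting, was among the lost ones with 12 PETs. SARA1A, MBD8 and PRF3 each had 1 connecting gene in *myc2* and 5 in Col-0. In each of them the kept partner was the strongest of Col-0, with 14 PETs in *myc2* and 38 in Col-0 at SARA1A, 13 in *myc2* and 44 in Col-0 at MBD8, and 9 in *myc2* and 21 in Col-0 at PRF3. The anchor of PRF3 (-164 to 565) also holds its printed G-box. Those of SARA1A (9 to 505) and MBD8 (-103 to 1111) do not hold theirs.

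The 6 hubs with no connecting gene in *myc2* had 5 each in Col-0. They were UGT74D1, encoding a glucosyltransferase that acts on auxins, SGT, encoding a sterol glucosyltransferase, AT4G00390, encoding a DNA-binding storekeeper-related protein, AT4G31860, encoding a protein phosphatase 2C, AT2G23910, encoding a Rossmann-fold protein, and AT2G41200, of unknown function. Their PETs in Col-0 numbered 77 at AT2G41200, 73 at UGT74D1, 68 at AT2G23910, 65 at AT4G31860, 64 at SGT and 59 at AT4G00390. The strongest of their lost pairs was that of AT2G41200 with GLU2, a glutamate synthase gene, at 30 PETs. SGT lost its neighbour AT3G07010, a pectin lyase-like gene, at 22 PETs and RPM1, the disease resistance gene, at 10 PETs. AT4G31860 lost, among others, MGD1, which makes the main galactolipid of chloroplast membranes, at 10 PETs and PGR3, of cyclic electron flow, at 14. UGT74D1 lost AT2G31790, another glycosyltransferase gene, at 13 PETs and a basic helix-loop-helix gene, AT2G31730, at 15.

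In 5 of these 6 hubs the anchor of the node gene took part in no loop of the *myc2* list at all, so that its tags in *myc2* are not known. The anchor of UGT74D1 was used by loops in *myc2* and held 1243 tags there and 1539 tags in Col-0. At AT2G41200 the anchor lies 881 to 1589 bases after the start and also overlaps the promoter of PIP5K5.

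Of the 74 hubs, 4 pairs were joined to each other in Col-0, and all 4 loops were absent from the *myc2* list. The rule makes this likely, since 356 of the 439 pairs counted from the 74 node genes were lost. Joined pairs and shared lost partners were not counted among the other hubs. AT1G76980 (a patatin-like phospholipase domain gene) and AT1G76994 (uncharacterized) were joined by 25 PETs. AT5G23200 and the nicotinamidase gene NIC2, of NAD salvage, were joined by 23 PETs. AT3G13210, similar to the splicing factor gene crooked neck, and AT3G13225, encoding a WW domain protein, were joined by 11 PETs, as were AT5G42330 and CML37, encoding a calmodulin-like calcium sensor.

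These neighbours had several lost partners in common. AT1G76980 and AT1G76994 both lost SKP2B, AT1G77010 and AT1G77060, while the gene between them, ACR3, stayed joined to both, by 21 PETs in *myc2* and 51 in Col-0 for AT1G76980 and by 7 in *myc2* and 24 in Col-0 for AT1G76994. AT5G23200 and NIC2 both lost SCPL34, and AT5G42330 and CML37 both lost UBL5 and AT5G42320. VAR1, a chloroplast FtsH protease gene, stayed joined to AT5G42330 (11 PETs in *myc2*, 13 in Col-0) but was lost by CML37 (12 PETs in Col-0). AT5G42310 went the other way, lost by AT5G42330 at 23 PETs and kept by CML37 with 9 PETs in *myc2* and 12 in Col-0. AT3G13225 gained GIP1, the gene of a G-box factor-interacting protein, with 8 PETs in *myc2*, and AT3G13210 kept it with 10 in *myc2* and 25 in Col-0. AT3G13225 was another hub with 1 more connecting gene in *myc2* once Col-0 loops under 15 PETs were left out. DRT102 was lost by 2 hubs that were not joined to each other, Cand2 and AT3G04850.

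The remaining hubs are given by what they encode. Among genes of transcription and chromatin, 1 connecting gene in *myc2* and 5 in Col-0 were found for FD (the bZIP partner of the florigen), COL9 (a CONSTANS-like B-box protein), BLH6 (a BEL1-like homeodomain protein), AT4G38340 (an RWP-RK protein), AT5G01380 (a homeodomain-like protein), AT5G67411 (a GRAS protein), AT2G24960 (Myb/SANT-like), AT3G04850 (Tesmin/TSO1-like), MUG3 (derived from a MuDR transposase) and DET1, the repressor of light-regulated development. GATA27 and the AT-hook gene AT4G22770 had 1 in *myc2* and 6 in Col-0. FD kept LARP1c with 12 PETs in *myc2* and 28 in Col-0, and COL9 kept AT3G07670 with 10 in *myc2* and 28 in Col-0. DET1 kept none of its 5 partners, which had 10 to 16 PETs in Col-0, and its partner in *myc2* was AT4G10200 with 5 PETs.

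AT4G38340 had the strongest lost pair of the 74 hubs. It was joined to LAZ1 by 61 PETs in Col-0, over 2 anchors, and by no listed loop in *myc2*. It also lost AT4G38260 at 26 PETs and kept 1 of its 2 weakest partners, the expansin-like gene EXLA2, with 6 PETs in *myc2* and 10 in Col-0. It is the one hub of the 74 with 2 anchors, neither of them at its start, and 1 of the 2 took part in no *myc2* loop. LAZ1 itself had 9 connecting genes in *myc2* and 12 in Col-0.

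Among genes of signalling and of the cell surface, 1 connecting gene in *myc2* and 5 in Col-0 were found for the receptor-like kinase gene RKF1, the peptide hormone gene RALFL33, the RING finger gene ATL5 and the kinase gene AT5G66710. RKF1 kept AT1G29790 with 23 PETs in *myc2* and 49 in Col-0, but its pair with AT1G29740 was lost at 33 PETs in Col-0. AT1G26270, a phosphatidylinositol kinase family gene, had 2 in *myc2* and 7 in Col-0, and CBSX5, with CBS domains, had 1 in *myc2* and 6 in Col-0. CBSX5 lost PORB, encoding a protochlorophyllide oxidoreductase, at 22 PETs.

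Among genes of metabolism and redox, HXK2 (hexokinase), ALDH2B4 (aldehyde dehydrogenase), NDPK3 (nucleoside diphosphate kinase), NIC2 and the peroxidase gene AT5G58400 had 1 connecting gene in *myc2* and 5 in Col-0. APX6 (ascorbate peroxidase), C/VIF2 (an inhibitor of fructosidases), SIP1A (a small basic intrinsic protein of the aquaporin family), AT3G03980 (Rossmann-fold), AT5G22140 (an oxidoreductase) and AT3G19970 (an alpha/beta-hydrolase) had 2 in *myc2* and 7 in Col-0. SIP1A kept the glutamate receptor gene GLR1.1 with 15 PETs in *myc2* and 29 in Col-0 and GAPC1 of glycolysis with 10 in *myc2* and 24 in Col-0. It lost NAC047 and NAC046, genes of NAC transcription factors, at 13 and 12 PETs.

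Among genes of RNA, proteins, the cytoskeleton and transport, TUBG1 (gamma-tubulin), AT5G60670 (ribosomal protein L11 family), AT5G57910 (annotated as an rRNA methyltransferase), AT3G07810 and AT1G69250 (both with RNA-binding domains), AT5G03990 (FK506-binding-like), AT4G32640 (Sec23/Sec24 family), AT5G25265 (arabinosyltransferase-like), AT3G49990 (low temperature viability protein), AT5G02420 (similar to the cell cycle inhibitor SMR3), AT3G51090, AT5G48790 and AT2G03310 had 1 in *myc2* and 5 in Col-0. AT5G51370 (RNI-like), AT2G35795 (DnaJ domain), AT2G34040 (API5), AT4G21660 (spliceosome-associated), AT5G04810 (pentatricopeptide repeats) and AT1G75810 (uncharacterized) had 2 in *myc2* and 7 in Col-0. AT1G75810 kept its pair with CLV1, the receptor kinase gene of the shoot meristem, at 10 PETs in *myc2* and 35 in Col-0. AT3G51090 lost GATA6 at 33 PETs, and AT2G03310 lost WRKY3 at 21 PETs.

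Each pair of genes was counted once to set the losses against all Col-0 hubs. Of the 435 gene pairs of the 74 hubs in Col-0, 352 had no listed loop in *myc2*, against 30.7% of the pairs of all Col-0 hubs. The rule fixes that the share is high. The 74 hubs were picked for lost pairs of any PET count, so that their shares by PET count are a description too. Of the pairs with 20 to 29 PETs in Col-0, 27 of 53 were lost in the 74 hubs (50.9%), against 10.4% in the other hubs. Of those with at least 30 PETs, 4 of 17 were lost (23.5%), against 1.08%. Of the weakest pairs, with 10 to 11 PETs, 95.2% were lost in the 74 hubs, against 63.95% in the other hubs.

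Counted from each node gene, 356 pairs were lost and 83 kept. The lost ones had a median of 12 PETs in Col-0 (10 to 61), and the lost pairs of the other hubs had the same median and range. The pair of 61 PETs, AT4G38340 with LAZ1, enters both sets, because LAZ1 is itself among the other hubs. Of the 356 lost pairs, 141 had 10 or 11 PETs and 33 had at least 20, and in 46 hubs no lost pair reached 20. Pairs kept by the 74 hubs had a median of 9 PETs in *myc2* (5 to 26) and 19 PETs in Col-0 (10 to 51). Pairs kept by the other hubs had 0.429 times as many PETs in *myc2* as in Col-0, and at that ratio the *myc2* minimum of 5 PETs stands for 11.65 PETs in Col-0. Under it lay 141 of the 356 lost pairs. That ratio is drawn from pairs that reached the *myc2* minimum and so leaves out the lower ones. With the ratio of 0.399 of kept pairs of at least 20 PETs the limit stands for 12.5 PETs, and 203 of the 356 lay under it. These limits are averages and no fixed cut-off. Of the pairs of other hubs with 10 to 11 PETs in Col-0, 63.95% were lost and the rest were listed in *myc2*. The part of sequencing depth in the losses was not tested.

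**Figure D3:**
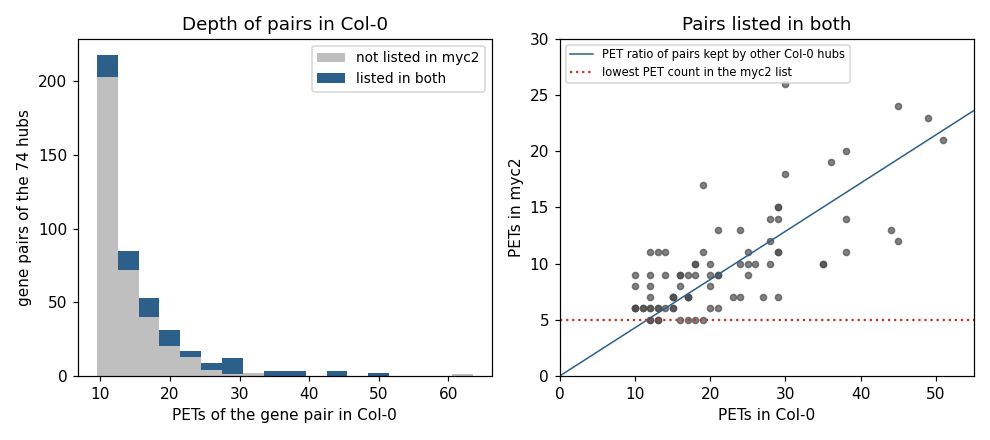
Left, PETs in Col-0 (horizontal axis) of the gene pairs of the 74 hubs (vertical axis, number), stacked as not listed in *myc2* (grey) and listed in both (blue). Right, PETs in *myc2* against PETs in Col-0 of the 83 kept pairs (points), with the ratio of 0.429 of pairs kept by the other hubs (blue line) and the lowest PET count of the *myc2* list, 5 (dotted red line).

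The loops that the 74 hubs kept had a PET ratio close to that of the other hubs. Over the 83 kept loops with the same anchors, 807 PETs in *myc2* and 1777 PETs in Col-0 gave a ratio of 0.454 (95% binomial interval 0.417 to 0.494). The other hubs had a ratio of 0.430 (0.428 to 0.432). Over loops of at least 20 PETs in Col-0, the ratio was 0.418 in the 74 hubs and 0.399 in the others. A kept loop needed at least 5 PETs in *myc2*, which raises such ratios where loops are weak. Intervals cover counting error only.

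The disassembled hubs had weaker loops already in Col-0. A pair of theirs had a median of 13 PETs in Col-0 and a pair of the other hubs 17, although their distances were alike (12.2 kb and 12.4 kb). A rule on lost pairs favours hubs with weak pairs. In the other hubs too, 63.95% of pairs with 10 to 11 PETs in Col-0 were lost, against 1.08% of those with at least 30. Summed over its pairs, a disassembled hub had a median of 9.5 PETs in *myc2* and 89 in Col-0, and another hub 53 in *myc2* and 133 in Col-0. The kept pairs were the shorter ones: they spanned a median of 7.89 kb in the 74 hubs and the lost ones 13.4 kb. In the other hubs kept pairs spanned 10.4 kb and lost pairs 18.7 kb. Of the lost pairs, 92 of 356 joined genes with at most 1 gene between them, and of the kept pairs 43 of 83.

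A partner was kept by 62 of the 74 hubs. In 40 of the 62 the strongest partner of Col-0 was kept, and in 27 the nearest. The same counts were not made for the other hubs. Their kept pairs were the stronger ones too, with a median of 21 PETs in Col-0, against 12 in their lost pairs. A new partner in *myc2* was found in 9 hubs, 1 in each, while 63.8% of all Col-0 hubs gained at least 1, and a hub with many gains could not have met the rule. All 9 new partners had 5 to 8 PETs in *myc2*, and loops that weak would not have been listed in Col-0, where the lowest count was 10. The share of 63.8% rests on the same unequal minimums. In 6 hubs the new partner was the only one in *myc2*: HK1 at PYL6, AT4G10200 at DET1, AT3G07890 at AT3G07810, ADCL at AT5G57910, CHR1 at AT5G66710 and LBD37 at AT5G67411. They were joined by 5 or 6 PETs.

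Most of the lost partners of the disassembled hubs were still in the loop network. Of 349 distinct partner genes that were lost, 342 had at least 1 connecting gene in *myc2*, 247 were hubs in Col-0 and 158 were hubs in both genotypes. Partners lost by the other hubs, and node genes in general, were not counted in this way. These counts are therefore a description, and whether they differ from the background was not tested. The 7 with none in *myc2* were ACP1 and NHX2 (lost by Cand2), AT2G19870 (HXK2), AT3G07640 (COL9), AT4G10260 (DET1), UGE5 (NDPK3) and AT5G47160 (GATA27). Except for AT2G19870, which had 3, they had a single connecting gene in Col-0.

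The 74 hubs were spread over all chromosomes, with 10, 10, 18, 16 and 20 genes on chromosomes 1 to 5. On chromosome 1 lay 13.5% of them and 25.3% of all Col-0 hubs, and on chromosome 4 21.6% of them and 15.4% of all Col-0 hubs. In 69 of the 74 an anchor overlapped the promoter of the gene, taken as the 1 kb before its start and the 0.5 kb after it (93.2%), against 97.6% of the other hubs. The exceptions were SBTI1.1, AT2G41200, AT4G38340, CYP79B2 and AT5G58400. In 21 hubs the anchor also overlapped the promoter of another gene, and in 8 it was also covered to at least 50% by another gene. Such overlaps were not counted for the other hubs. Summed over the anchors of a gene, the width had a median of 878 bp in the 74 hubs, against 1070 bp in the other hubs. The 74 hubs had 75 anchors and the other 7069 hubs 7275, so that this sum also depends on the number of anchors. The 74 genes were 2309 bp long at the median, against 2497 bp in the other hubs.

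The tags in the anchors, which count ChIA-PET reads with H3K4me3 whether or not they form a loop, were given in both lists for 69 of the 74 hubs. A median of 935 tags in *myc2* and 1291 tags in Col-0 was found in the 74 hubs, and of 1585 tags in *myc2* and 2015 in Col-0 in the other hubs. The tag ratio of *myc2* over Col-0 had a median of 0.743 in the disassembled hubs (0.407 to 0.932) and of 0.787 in the other hubs. Below 0.775, which is the median of all 14505 anchors that held 300 or more tags in Col-0, lay 47 of 69 disassembled hubs and 3033 of 7063 other hubs. A smaller summed anchor width, fewer tags and weaker loops thus went together in the 74 hubs. The rule itself favours hubs with weak loops, so that this is a description. The part of anchors and tags in the losses was not tested.

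The lowest tag ratio was that of AT2G03310, with 673 tags in *myc2* and 1653 in Col-0 (0.407, 0.372 to 0.446). AT3G04850 had 141 tags in *myc2* and 302 in Col-0 (0.467), and AT5G60670 434 in *myc2* and 904 in Col-0 (0.480). Most of the named hubs were nearer to the middle. OST1 had 927 tags in *myc2* and 1310 in Col-0 (0.708, 0.650 to 0.770), and SEX4 879 in *myc2* and 1157 in Col-0 (0.7597). Cand2, with the deepest fall in connecting genes, had 2281 tags in *myc2* and 2609 in Col-0, a ratio of 0.874 (0.826 to 0.925) that lay above the median of all anchors. CYP79B2 (0.826) and NF-YC11 (0.823) lay above it too.

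**Figure D4:**
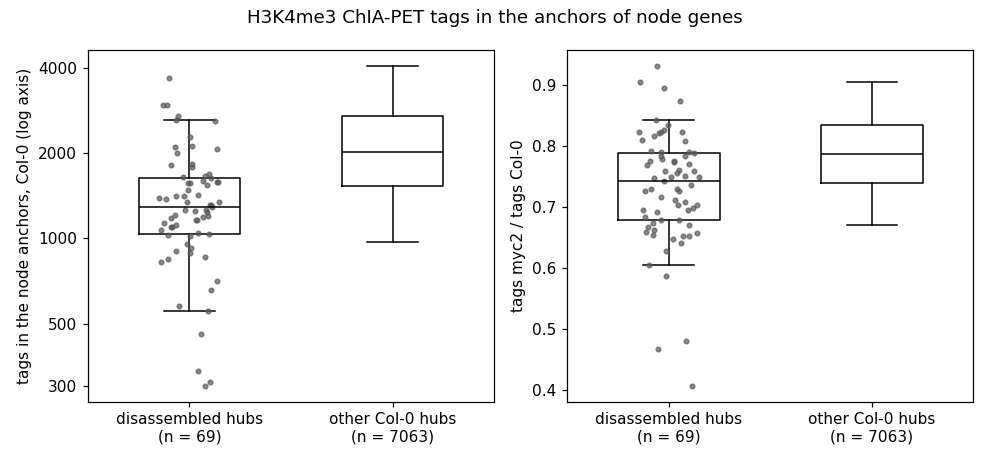
H3K4me3 ChIA-PET tags in the anchors of 69 disassembled hubs (left box, each hub a point) and of 7063 other Col-0 hubs (right box), with Col-0 tags on a log axis in the left panel and the ratio of tags in *myc2* over Col-0 in the right panel. Boxes give median and quartiles and whiskers the 5th and 95th percentiles; the medians are 1291 and 2015 tags, and ratios of 0.743 and 0.787.

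Near the limit of the rule, 15 hubs had lost 0.714 of their connecting genes, with 2 in *myc2* and 7 in Col-0, and 7 hubs had lost 0.75. Just outside lay 60 hubs that had lost 0.667, 15 that had lost 0.625 and 140 that had lost 0.6. Col-0 loops under 12 PETs were also left out, which sets the limits of the lists at about the ratio of their kept loops. Leaving out Col-0 loops can only lower the numbers in Col-0, so that only hubs among the 74 could then meet the rule. Of the 74, 18 still had at least 5 connecting genes in Col-0. The rule was met by 7 of 5058 Col-0 hubs. They were OST1 and Cand2, each with 2 connecting genes in *myc2* and 7 then in Col-0, SEX4 (2 and 8), SIP1A (2 and 7), NF-YC11 (1 and 6), CBSX5 (1 and 6) and HXK2 (1 and 5). With those under 15 PETs left out none of 2793 Col-0 hubs met it, and 4 of the 74 were still hubs in Col-0.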

How the data were processed

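Shoots of 2 *myc2* and 2 wild-type Col-0 samples were profiled by H3K4me3 ChIA-PET. The authors combined the 2 replicates of a genotype and called loops with ChIA-PET Tool V3 on TAIR10, between anchors made by merging the H3K4me3 ChIP-seq peaks of *myc2* and Col-0. Clusters with an FDR under 0.05 and enough PETs for the depth were kept. Which aligner was run is not given in the sources used here. For each loop the authors deposited a count of PETs and a count of tags per anchor, both unscaled, next to a p-value, an FDR and the −log10 of either. The PET totals limit the precision.

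An anchor went to the protein-coding gene (27444, RefSeq TAIR10.1) whose region, 1 kb upstream of the start to the gene end, covered at least 50% of it, by largest overlap and then lower identifier. No anchor reaches past the end of any of its 5 chromosomes, and 97.9% of 15694 anchors had a gene. Gene symbols are RefSeq's.

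The hubs and the gene lists were chosen with earlier results of these data known. Partners are described singly for the 10 largest falls, hubs without partners in *myc2*, hubs in the gene lists, the 5 hubs with most PETs in Col-0 and hubs joined to each other, and partners of other hubs were named after their values were seen. With 1 list per genotype no p-value was computed. Shares have Wilson intervals and ratios of counts binomial intervals. Alternatives changed the PET minimum, the FDR, the loops, the gene of an anchor, the rule's limits and the motif window. The script was tested on simulated data. The scripts ran in Python 3.11.15, with pandas 2.3.3 and numpy 2.4.6 for tables, scipy 1.17.1 for intervals and matplotlib 3.10.9 for figures.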

Additional observations from a re-analysis of the deposited data

How the results depend on the processing

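No paired analysis was possible because the replicates of each genotype were pooled in the lists, and for the same reason no replicate could be left out. The number of entirely disassembled hubs, 74, and how many of the 74 remained depended on the PET minimum. With 10 PETs in both lists 3692 of 7143 Col-0 hubs met the rule (51.7%). With 20 PETs 734 of 976 did (75.2%), of which 0 were among the 74, none of which was then a Col-0 hub and whose median change was -1. With Col-0 loops under 12 PETs left out (the setting that also gave about equal numbers of loops) 7 of 5058 met it. Only hubs among the 74 could do so, because this setting can only lower the numbers in Col-0. Of the 74, 18 were still Col-0 hubs, and the median change was -3. With Col-0 loops under 15 PETs left out 0 of 2793 met it, 4 of the 74 were still hubs, and the median change was -1. At that last setting 9 of the 74 were higher in *myc2*, and among the 24 hubs described singly these were PYL6, AT3G13225, CYP72A11, AT5G42330 and CML37, each changed by 1. The cause was not tested beyond the construction of these settings, in which fewer loops enter a list. Counting every gene that covers at least 50% of an anchor gave 149 hubs, and every gene whose promoter overlaps it 189, with 47 of the 74. A loss of at least 0.6 gave 289, hubs of at least 4 gave 205 and hubs of at least 6 gave 31. An FDR under 0.001 removed no loop, since the highest FDR was 0.000111 in *myc2* and 3.18e-10 in Col-0. Loops within chromosomes gave 76 and an overlap of 1 bp 73. The share of hubs with a G-box, 5.41% in the promoter, was 14.9% in the anchor and 21.6% with CACATG added.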
